A study of Mus musculus with 12 samples.

Results

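The comparison set 3 oral soft tissue samples from mice given dibenzo[a,l]pyrene (DBP) with a chemopreventive agent labelled BR extract against 3 samples from mice given DBP without it. It used 6 of the 12 samples of the series, chosen by their labels alone. All mice were female B6C3F1/J, a hybrid of 2 inbred strains, 8 weeks old at the start, on the AIN-93M diet. Per the labels, all 6 samples came from mice that had DBP at 24 nmol, given into the oral cavity 3 times a week over 5 weeks, and tissue was collected 48 h later. The labels do not spell out BR, and they give neither a dose nor a route for it. DBP is a polycyclic aromatic hydrocarbon of tobacco smoke, and DMSO was its vehicle. Buccal mucosa, floor of the mouth and the soft tissue of the hard palate were combined before DNA extraction, so that each sample mixed epithelium, muscle and connective tissue. The labels number the samples and do not say whether each was a single animal. The p-values measure only the spread between these samples, except those of logistic regression on reads. That regression has no term for this spread. Groups are named as the labels give them, with 1 doubt that touches the comparison. At each CpG described here from the study's own list for DBP and DMSO, the libraries labelled DBP and those labelled DMSO differ in the direction opposite to the one listed, so that either the labels of these groups or the listed signs are exchanged. The study's own summary of its samples gives the same counts of methylated CpG calls under the same labels. They were 2555361, 2138019 and 1356740 for its controls and 2756772, 2693553 and 2709740 for DBP. The deposited labels are thus those the study used. Whether the labels were exchanged in both places, or only the listed signs, cannot be told apart here. If it is the labels, the samples called DBP throughout are those of the vehicle group.

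Methylation was read by enhanced reduced representation bisulfite sequencing (ERRBS), in which MspI cuts DNA at CCGG and bisulfite leaves only methylated cytosines as C. The methylation level of a CpG is the percent of its reads that call it methylated. Of the 3558448 autosomal CpGs with any read in the 6 samples, 102114 had 10 or more reads in all 6 after the deepest 0.1% of cytosines of each sample were removed. These are the CpGs described here. In addition, 44510 windows of 1000 bp and the promoters of 12755 of 21410 protein-coding genes had 20 or more reads in each sample, where a promoter reached 1000 bp to each side of any transcription start.

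In mammalian DNA most CpGs outside CpG islands carry a methyl group on both strands, kept through cell division by the maintenance enzyme DNMT1 and set anew by DNMT3A and DNMT3B. CpG islands at gene starts are mostly free of it, and dense promoter methylation goes with silencing of the gene. In oral carcinogenesis both loss of methylation over the genome and gain at promoters of tumor suppressors are known. DBP is activated by cytochrome P450 enzymes to a diol epoxide that forms bulky DNA adducts.

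The libraries of the 2 groups stood apart in depth before any comparison. The 3 BR extract samples held 78889043, 17712547 and 26280440 CpG calls (reads summed over CpGs), and the 3 DBP samples held 7515975, 7714065 and 7974299 CpG calls. At the shared CpGs the median depth was 70, 42 and 76 reads in the BR extract samples and 20, 22 and 23 reads in the DBP samples. Depth and treatment cannot be told apart in these 6 samples, and the labels do not give the sequencing lane. The 2 strands of a CpG read in 1 library offered a measure that does not involve the groups. With 10 reads drawn from each strand, the squared difference between strands was 1.51 to 1.69 times the binomial expectation in the DBP samples and 2.52 to 3.03 times in the BR extract samples. In the rest of the series it was 1.41 to 1.87 times with DMSO. It was 2.41 to 3.42 times with DBP and an agent that the labels do not name, so the larger ratios were not particular to BR extract. Over the 263 CpGs read on both strands in all 6 samples, the ratio was 1.48 to 1.85 with DBP and 2.23 to 2.72 with BR extract. At equal read number, the strands thus differed more in each BR extract library than in any DBP library. The part of depth and of this difference between strands in the results was not tested.

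The sequences shown are those of CpGs on which the results turn. Each stretch is from the forward strand of mm9, with capitals at the measured CpG, and the coordinates span the printed bases. The first 5 are single CpGs called between the groups with wide differences in both directions, and the last, in Dnmt1, is the CpG called by the test that includes the spread between samples.
Gpbp1, chr13:112301323-112301384: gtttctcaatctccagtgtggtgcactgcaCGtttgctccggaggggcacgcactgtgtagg
Zfpm1, chr8:124820564-124820625: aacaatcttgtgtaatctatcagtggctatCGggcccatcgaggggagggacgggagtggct
1700012A16Rik, chr1:155272548-155272609: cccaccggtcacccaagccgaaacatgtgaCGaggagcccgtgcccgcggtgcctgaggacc
Dnmbp, chr19:43971008-43971069: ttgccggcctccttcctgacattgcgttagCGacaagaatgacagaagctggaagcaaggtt
Rai1, chr11:59999725-59999786: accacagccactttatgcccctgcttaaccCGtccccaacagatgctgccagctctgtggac
Dnmt1, chr9:20735580-20735641: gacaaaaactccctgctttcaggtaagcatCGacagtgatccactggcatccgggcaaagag
The next stretches each hold 3 or more called CpGs side by side, with the called ones in capitals.
Slc4a3, chr1:75746487-75746561: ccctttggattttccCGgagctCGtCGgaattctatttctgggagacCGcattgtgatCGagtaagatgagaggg
Intu, chr3:40487292-40487365: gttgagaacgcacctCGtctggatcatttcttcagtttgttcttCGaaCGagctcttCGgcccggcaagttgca
Gnas, chr2:174120980-174121049: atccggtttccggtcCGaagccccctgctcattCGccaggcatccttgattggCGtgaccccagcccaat
Runx3, chr4:134685674-134685724: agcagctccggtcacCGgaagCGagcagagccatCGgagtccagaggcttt

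The mean methylation level was nearly the same in both groups. With 10 reads drawn per CpG, it was 29.0%, 28.5% and 28.4% in the BR extract samples and 29.3%, 29.1% and 28.9% in the DBP samples. The first BR extract sample lay inside the DBP range, so the groups overlapped. The difference was -0.44 points (28.7% ± 0.317 against 29.1% ± 0.207, SD, n = 3 each; exact permutation test, two-sided, p = 0.2). With 3 samples against 3, an exact permutation test cannot go below p = 0.1. Summed over all CpG calls of each library, without regard to which CpGs were covered, the level ranged from 28.8% to 38.9% with BR extract and from 33.5% to 36.3% with DBP.

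The distribution of levels differed more than the mean. CpGs of intermediate methylation, from 20 to 80%, made up 24.6%, 23.8% and 24.97% of the shared CpGs in the BR extract samples. In the DBP samples they made up 26.7%, 27.0% and 27.0%, and every DBP sample lay above every BR extract sample. The difference was -2.43 points (24.5% ± 0.582 against 26.9% ± 0.137; exact permutation test, n = 3 each, two-sided, p = 0.1, the smallest possible). CpGs below 20% were more frequent with BR extract, at 59.0% ± 0.441 against 57.5% ± 0.161, and so were CpGs above 80%, at 16.6% ± 0.398 against 15.6% ± 0.252. Both of these also separated the groups (exact permutation test, n = 3 each, p = 0.1, and p = 0.1 adjusted over the 3 classes). The other groups of the series were set beside these. Over the 37156 CpGs with 10 reads in all 12 samples, the intermediate share was 26.2% to 27.3% with BR extract, 29.1% to 29.5% with DBP and 29.2% to 29.6% with DMSO, whose libraries held 3287367 to 7774032 calls. In the samples given DBP with the agent that the labels do not name it was 29.0%, 27.4% and 26.3%, at 39615620, 26953761 and 16908728 calls. These shares are given side by side, and the part of depth in them was not tested.

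**Figure D1:**
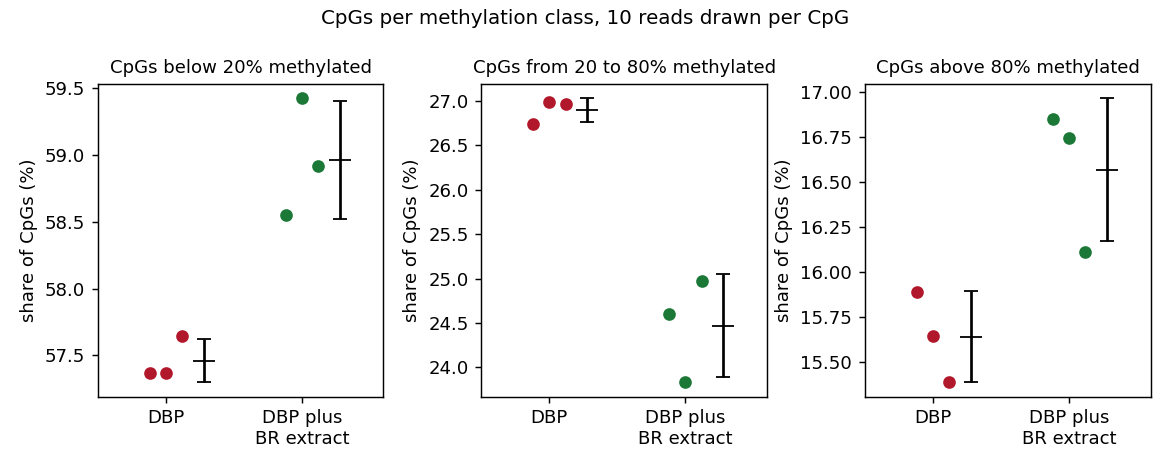
Share of the 102114 shared CpGs (y axis, %, not starting at 0) that were below 20%, from 20 to 80% and above 80% methylated, in each DBP sample (red) and each DBP plus BR extract sample (green), with 10 reads drawn per CpG. Bars give the mean ± SD of 3 samples, and in each of the 3 classes the groups do not overlap.

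By position in genes, the mean level was lowest in promoters and highest in introns, and the groups differed by less than 1 point in each class. In promoters it was 7.84%, 7.50% and 7.40% with BR extract and 8.01%, 8.04% and 7.86% with DBP, so that every BR extract sample was lower (exact permutation test, n = 3 each, two-sided, p = 0.1, and p = 0.4 adjusted over the 4 classes). Exonic CpGs averaged 52.3% ± 0.427 against 52.6% ± 0.370 and intronic CpGs 60.4% ± 0.563 against 61.1% ± 0.394. CpGs between genes averaged 55.5% ± 0.323 against 56.1% ± 0.396. In these 3 classes the groups overlapped (exact permutation test, adjusted p from 0.4 to 0.5).

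Single CpGs were compared as in the study's own design, by logistic regression of the reads after the coverage of each sample had been scaled to that with the highest median. A CpG was called at a Benjamini-Hochberg q-value under 0.01 and a difference of pooled levels over 25 points. This gave 962 calls, 0.942% of the CpGs tested, of which 310 were higher and 652 lower in the BR extract samples. At a difference over 10 points there were 8568 calls, 8.39% of those tested, 3613 higher and 4955 lower. The groups did not overlap at 581 of the 962 CpGs, with 403 of them lower, where 5.58% of all CpGs tested did not overlap. The scaling multiplied the DBP reads by 2.56 and those of the BR extract samples by 1 to 1.86, and the regression has no term for the spread between samples. Without the scaling 672 CpGs were called over 25 points and 1788 over 10, and 616 of the 962 were among them. With 10 reads drawn in each sample 7 CpGs were called over 25 points. edgeR's quasi-likelihood test, which estimates the spread between samples, called 1 CpG at an adjusted p under 0.05 (0.000979% of those tested) and 0 at an adjusted p under 0.01. It gave 3479 CpGs an unadjusted p under 0.05, 3.41% of all. limma called 0 at an adjusted p under 0.01 and a difference over 25 points, and 0 over 10 points. It gave 21022 CpGs (20.6%) an unadjusted p under 0.05. With 10 reads drawn, an alternative chosen after seeing the data, 2.95% were under 0.05. The measure given to limma adds 1 read to each count, so where all reads of a CpG agree it changes with depth alone. The part of this in the limma p-values was not tested.

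The called CpGs were largely those of intermediate methylation in the DBP samples. Their median DBP level was 55.4%, against 3.92% over all CpGs tested, and 744 of the 962 had a DBP mean from 20 to 80%, against 22.8% of all tested. Promoters held 268 of the calls, exons 177, introns 260 and stretches between genes 257. Relative to the CpGs tested, introns had the highest rate at 1.78%, then stretches between genes at 1.55%, exons at 1.35% and promoters at 0.463%. Among CpGs of intermediate DBP level alone the rate was 3.995% in exons, 3.59% in introns, 3.35% between genes and 2.49% in promoters. Lower calls outnumbered higher ones in each of the 4 classes and on each of the 19 autosomes. The rate by chromosome ran from 0.533% on chromosome 14 to 1.21% on chromosome 4.

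**Figure D2:**
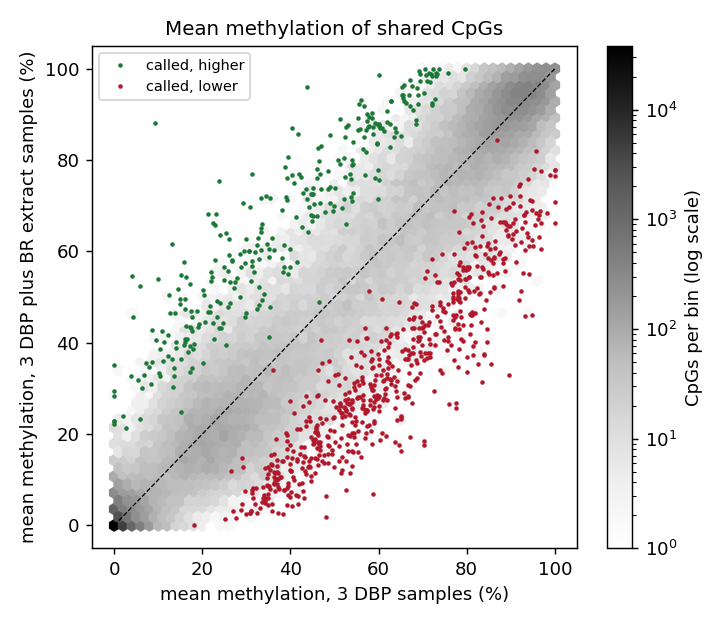
Mean methylation of each shared CpG in the 3 DBP samples (x axis, %) against the 3 DBP plus BR extract samples (y axis, %). Grey shading counts CpGs per bin on a log scale, and points are the 962 CpGs called over 25 points, 310 higher (green) and 652 lower (red), which fill the middle of the range.

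The 12 called CpGs with the smallest p and separated groups were 7 lower and 5 higher with BR extract. Separated groups were a condition for being among the 12. Their q-values lay between 1.88e-28 and 4.66e-21, while edgeR's unadjusted p lay between 0.000175 and 0.077 and none passed after adjustment (adjusted p from 0.674 to 1). Only the CpG in 1700012A16Rik was also called with 10 reads drawn. The q-values describe the reads of these libraries, and the edgeR values describe the spread between samples.

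The CpG with the smallest p, chr13:112301353-112301354, lies between genes, 21034 bp before a start of Gpbp1, which encodes a transcription factor that binds GC-rich promoters. It was 0%, 10.4% and 8.72% methylated in the BR extract samples (16, 144 and 172 reads) and 40%, 39.5% and 64.5% in the DBP samples (30, 38 and 31 reads). All BR extract samples were below all DBP samples, with a pooled difference of -38.1 points. A second called CpG 38 bp away had 23.1% ± 25.8 against 64.2% ± 6.25. In the DMSO samples the first CpG stood at 54.8%, 33.8% and 60.7%.

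A CpG at chr8:124820594-124820595 lies in an intron of Zfpm1, a cofactor of GATA transcription factors, and of the overlapping gene model Gm20388. It was 74.4%, 58.5% and 65.5% methylated with BR extract and 34.0%, 16.3% and 17.1% with DBP. Each BR extract sample exceeded each DBP sample, with a pooled difference of 39.7 points. The same gene model holds a CpG in an intron of Tcf25, chr8:125922380-125922381, with the opposite sign. It was 60.7%, 28.3% and 42.6% with BR extract against 89.5%, 75.0% and 78.6% with DBP.

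At chr17:23797962-23797963, in an intron of Ccdc64b 472 bp from its start, the level was 18.8%, 9.76% and 15.2% with BR extract and 38.1%, 31.0% and 55.6% with DBP. Of the other 6 tested CpGs within 500 bp none was called over 25 points, and their median difference was -1.58 points. In Numa1, which encodes a spindle pole protein, an exonic CpG 41 bp from a start (chr7:109149720-109149721) was 31.8%, 12.3% and 18.2% with BR extract against 56.9%, 36.8% and 53.0% with DBP. Both of these promoter CpGs were lower with BR extract, with separated groups by the rule of their choice.

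The largest difference among the 12 was at chr1:155272578-155272579, in an exon of 1700012A16Rik 286 bp from its start. It was 79.2%, 100% and 85% methylated in the BR extract samples (24, 10 and 20 reads) and 0%, 7.69% and 20% in the DBP samples (13, 13 and 10 reads). The group means were 88.1% ± 10.7 and 9.23% ± 10.1, and the pooled difference was 78.1 points. At these depths a single level is imprecise: 10 of 10 methylated reads has a 95% Wilson interval from 72.2% to 100%, and 0 of 13 allows a level of up to 23.1%. The 4 other CpGs tested within 17 bp had a median difference of 14.9 points, 3 of them higher, and none was called over 25 points.

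Intronic and exonic CpGs of 2 other genes moved in opposite directions. In Dnmbp, a scaffold protein that activates the GTPase CDC42, the CpG at chr19:43971038-43971039 was 26.7%, 14.5% and 14.5% with BR extract against 92.9%, 58.3% and 60.0% with DBP. In Rai1, a chromatin-associated regulator of transcription, the exonic CpG at chr11:59999755-59999756 was 100%, 100% and 96.1% with BR extract against 61.5%, 52.4% and 66.7% with DBP. Rai1 had the smallest edgeR p of the 12 (0.000175), and its levels varied little within either group (98.7% ± 2.25 and 60.2% ± 7.24).

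The remaining 4 of the 12 lie between genes. The CpG 31747 bp before a start of Cox10 (chr11:63924715-63924716), a gene for heme synthesis in cytochrome oxidase, was 66.0%, 17.7% and 58.5% with BR extract and 88.4%, 77.8% and 85.4% with DBP. The second BR extract sample was far below the other two, and without it the pooled difference was -24.0 points and the CpG was no longer called. The CpG 11979 bp before Gm10293 (chr3:52404728-52404729) was 11.1%, 0% and 10.96% against 37.5%, 52.0% and 31.0%. The CpG 89695 bp past a start of Cdca7 (chr2:72404005-72404006) was 100%, 100% and 97.1% against 47.3%, 84.2% and 96.0%, and 1 DBP sample carried much of its difference. Without DBP sample 1 the pooled difference fell to 8.88 points and the call was lost. The CpG 14071 bp past a start of Gm8220 (chr14:44877317-44877318) was 90.1%, 61.5% and 60.0% against 47.5%, 36.1% and 56.5%. Of 8 other CpGs tested within 500 bp, 5 went the same way, while that 2 bp away was lower with BR extract (pooled difference -22.0 points). Without BR extract sample 1 the difference at the named CpG was 14.98 points and it was not called. Ccdc64b was likewise not called without DBP sample 3, at -20.4 points. The other 8 of the 12 were called whichever sample was left out.

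**Figure D3:**
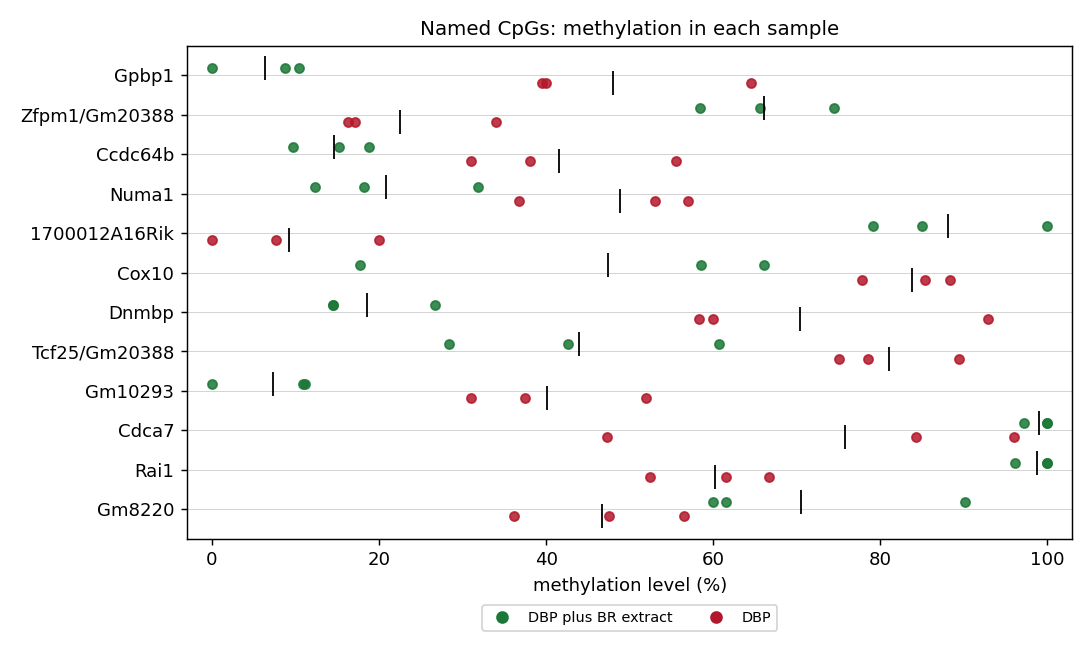
Methylation level (x axis, %) of the 12 named CpGs in each DBP plus BR extract sample (green) and each DBP sample (red). Short black lines are group means, and at each CpG the 3 green points lie wholly on one side of the 3 red ones, which was a condition for their choice.

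Most calls stood alone. Joined over gaps of up to 1000 bp, the 962 calls formed 881 groups, of which 817 were single CpGs. Of the 64 groups with 2 or more calls, 62 went in 1 direction. In 14 groups there were 3 to 5 calls within 14 to 49 bp, 12 of them lower and 2 higher with BR extract. CpGs this close are read by the same fragments and are not independent. These 14 were picked by their number of calls after the values were seen, so no test is given for them, and the levels are means over all tested CpGs of the span.

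The span with most calls, chr1:75746502-75746546, has 5 called CpGs and lies 200090 bp from the nearest protein-coding start, that of the anion exchanger gene Slc4a3. It was 1.33%, 23.3% and 7.38% methylated with BR extract and 56.2%, 62.4% and 25% with DBP. DBP sample 3 came close to BR extract sample 2. In an exon of Intu, a planar cell polarity gene needed for cilia, 4 CpGs (chr3:40487307-40487350) stood at 60.3%, 30% and 18.8% against 89.3%, 73.2% and 76.2%. In an exon of Ptpn14, a phosphatase that restrains YAP, 172 bp from its start (chr1:191610723-191610767), the mean was 5.82% ± 3.38 against 32.3% ± 4.84.

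The span in Gnas (chr2:174120995-174121034), the imprinted locus of the stimulatory G protein alpha subunit, was 9.09%, 25.1% and 17.1% with BR extract and 37.1%, 43.9% and 87.5% with DBP. All its 3 CpGs had separated groups, and the spread was wide among the DBP samples (56.2% ± 27.4). Runx3, a transcription factor and tumor suppressor, was 1 of the 2 with higher levels. Its 3 intronic CpGs, 9122 bp past a start (chr4:134685689-134685709), stood at 83.9%, 72.9% and 84.5% with BR extract against 44.4%, 47.6% and 59.7% with DBP. The other, in Fbxo17 95 bp from its start, stood at 11.8%, 71.7% and 30% against 11.9%, 10.9% and 12.5%, with 1 BR extract sample inside the DBP range. The remaining lower spans lay in or near Cox10, Tbcd, Rpl3l, Gm10293, Tecpr1, Kcnn4, Adamtsl3 and Pigyl. Over all 14, the span means of the groups did not overlap in 11, as a description of spans chosen for their calls.

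The 1 CpG called by edgeR lies in an intron of Dnmt1, the gene of the maintenance methyltransferase, at chr9:20735610-20735611, 21707 bp past its nearest start. It lies outside the rule for named CpGs and is given because it was the only such call. All 64, 226 and 135 reads of the BR extract samples were methylated, against 63 of 74, 58 of 64 and 23 of 30 reads of the DBP samples. The BR extract samples thus stood at 100% each and the DBP samples at 85.1%, 90.6% and 76.7%, with a pooled difference of 14.4 points (edgeR quasi-likelihood test, adjusted p = 0.0431). With no unmethylated read, an unmethylated share of up to 4.69%, 1.33% and 2.22% is possible in the 3 BR extract samples by the limit of 3 reads. A CpG 21 bp away went the other way, at 84.2% ± 1.48 with BR extract and 91.8% ± 4.20 with DBP. The DMSO samples had 95.9%, 92.4% and 81.8% at the called CpG. With 10 reads drawn per sample the difference was 6.67 points and the regression did not call it.

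Of the 7 CpGs called with 10 reads drawn, 5 were also among the 962. Besides 1700012A16Rik these were in or near Slc4a3, Etv3, Stk40 and Pkd1. In Pkd1, the polycystin 1 gene, the exonic CpG at chr17:24730819-24730820 was 88.0%, 100% and 100% with BR extract and 22.2%, 73.3% and 35.7% with DBP. In Etv3, an ETS family repressor, the CpG 20 bp from the start (chr3:87329575-87329576) was 18.7%, 9.30% and 10.3% against 25%, 61.9% and 45%. The other two, in Tesc and Cux1, had pooled differences of -18.2 and -18.6 points over all reads.

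The CpGs that the study lists for the genes it went on to measure by RT-PCR were chosen for their difference between DMSO and the same DBP samples. At these CpGs a difference between BR extract and DBP is therefore no independent observation. Nor is the place of the BR extract samples between DBP and DMSO. For the same reason, counts of calls among them are not comparable with the shares over all CpGs. The values are given side by side under the labels, with the doubt about the labels of DBP and DMSO given at the start. Of 10 such CpGs, 8 had enough reads, and those of Pkm and Ppp1r13l had not. Over 25 points, 2 of the 8 were called, those of Efemp2 and of Ppp1r21, and 5 were called over 10 points, where 0.942% and 8.39% of all CpGs tested were. None passed in edgeR (unadjusted p from 0.0283 to 0.838, adjusted p of 1 for each).

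In Efemp2, an elastic fibre protein of the extracellular matrix, the exonic CpG 10 bp from a start (chr19:5475315-5475316) was 27.3%, 25% and 1.14% methylated with BR extract and 34.8%, 40.6% and 60.0% with DBP. The pooled difference was -28.9 points (logistic regression with Benjamini-Hochberg adjustment, q = 5.95e-13), and the DMSO samples stood at 9.09%, 28% and 20%. The difference was -18.2 points without BR extract sample 3 and -21.8 points without DBP sample 3, and neither kept the call over 25 points. In Ppp1r21, called Klraq1 in the annotation used, 2 CpGs of an intron lie close together and share reads. The CpG at chr17:88952526-88952527 was 20%, 0% and 4.08% with BR extract, 44.4%, 38.9% and 28.6% with DBP, and 0%, 8.33% and 0% with DMSO. The CpG at chr17:88952504-88952505 was 56.7%, 63.2% and 64.0% with BR extract, 100%, 77.8% and 78.6% with DBP, and 45.5%, 66.7% and 20% with DMSO. The second of these was not called over 10 points without BR extract sample 1 (-21.4 points, q = 0.028) or without DBP sample 1 (-16.1 points, q = 0.0541). Without scaling of coverage it was not called either (logistic regression, q = 0.0458). At these 3 CpGs the BR extract samples were all below the DBP samples, where the groups did not overlap at 5.58% of all CpGs tested.

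In Ctnnb1, which encodes beta-catenin, the CpG 671 bp from a start (chr9:120843607-120843608) was 28.9%, 23.4% and 14.3% with BR extract and 6.67%, 4.55% and 13.3% with DBP, beside 26.1%, 55% and 40% with DMSO, called over 10 points only (pooled difference 11.5 points, q = 0.00395). It was not called without either of BR extract samples 1 and 2 or DBP samples 1 and 2, with differences of 9.11, 9.86, 11.06 and 9.53 points. Nor was it called without scaling of coverage (logistic regression, q = 0.115). The CpG assigned to Vamp3 (chr4:150503856-150503857), which the annotation used places 252 bp before a start of Camta1, was 25%, 50.0% and 44.96% against 16.1%, 29.6% and 25.8%, with DMSO at 73.3%, 50.0% and 57.9%. It was called over 10 points as well, though the groups overlapped. Without scaling of coverage it was not called (logistic regression, q = 0.0175). No call was made at the other 3 CpGs. At Fgf3, a fibroblast growth factor gene, the CpG 9543 bp before the start (chr7:152014445-152014446) was 88.2%, 64.4% and 71.3% with BR extract, 87.5%, 70.0% and 68.8% with DBP, and 55.6%, 33.3% and 31.2% with DMSO. The BR extract and DBP means there were 74.7% ± 12.2 and 75.4% ± 10.5. Tbc1d4 stood at 46.0% ± 20.1 against 42.1% ± 10.6 and the CpG assigned to C1qtnf9 at 77.9% ± 27.5 against 88.1% ± 7.99, with 1 BR extract sample at 46.2%. With DMSO these were 76.3%, 70.3% and 83.3% at Tbc1d4 and 51.1%, 52.5% and 40% at C1qtnf9.

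**Figure D4:**
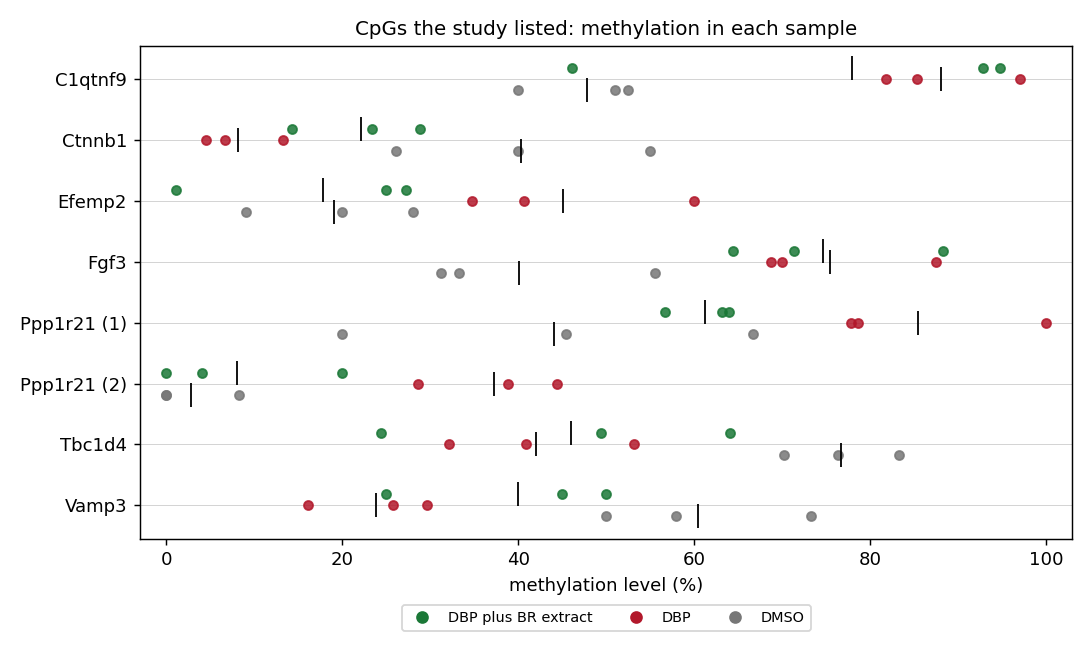
Methylation level (x axis, %) of the 8 CpGs that the study had listed for DBP against DMSO, in each DBP plus BR extract (green), DBP (red) and DMSO (grey) sample, with group means as black lines. The DMSO and DBP samples chose these CpGs. The green points are separated from the red ones at Ctnnb1, Efemp2 and both CpGs of Ppp1r21, which share reads, and overlap them at the other 4. Of all CpGs tested, 5.58% had groups that did not overlap.

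No window of 1000 bp was called between the groups. edgeR's quasi-likelihood test over 44510 windows called 0 (0% of those tested) at an adjusted p under 0.05, and the smallest adjusted p was 1. It gave 1702 windows, 3.82%, an unadjusted p under 0.05, of which 655 were higher and 1047 lower. limma called 0, with 2812 at an unadjusted p under 0.05. The median difference of windows was -0.34 points, and the range from the 5th to the 95th percentile lay between -10.5 and 8.64 points. Logistic regression on the pooled reads of the windows, which takes no account of the spread between samples, called 7383, of which 2548 were higher.

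The 8 windows with the smallest p are given as values. The first, chr11:68284001-68285000 in Pik3r5, a regulatory subunit of phosphoinositide 3-kinase gamma, was 100%, 99.2% and 98.3% methylated with BR extract and 89.5%, 79.1% and 87.5% with DBP. A window in Tram2 (chr1:21055001-21056000) stood at 98.4%, 98.3% and 96.0% against 74.3%, 80.4% and 70.8%. One 569608 bp from the start of Grik2 (chr10:48728001-48729000) stood at 98.9%, 100% and 99.4% against 89.7%, 86.3% and 89.1%. In these 3 windows the BR extract samples were at or near full methylation.

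Another 3 windows were close to unmethylated with BR extract. At Hoxb7 and Hoxb8 (chr11:96145001-96146000), homeobox genes of body patterning, the levels were 0%, 0% and 0% against 4.55%, 5.56% and 7.41%. At Sac3d1 (chr19:6117001-6118000) they were 0.599%, 0.455% and 0.627% against 2.66%, 2.84% and 5.19%, and at Tcfap4 (chr16:4558001-4559000) 0.153%, 0.546% and 0.905% against 3.17%, 12.7% and 5.49%. At Tcfap4 the difference went from -6.58 to -3.80 points without DBP sample 2. The window in Heg1 (chr16:33726001-33727000) was lower with BR extract, at 88.1%, 85.5% and 77.8% against 96.6%, 97.6% and 97.6%.

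A window 23685 bp from a start of Dnmt3a, a de novo methyltransferase gene, was 92.0%, 94.6% and 95.1% methylated with BR extract and 73.3%, 79.9% and 76.6% with DBP (chr12:3930001-3931000). Over only those of its CpGs that had 10 reads in all 6 samples, its difference of 17.3 points became 6.86 points (edgeR's test, unadjusted p = 0.129). Such a value could be given for 3 of the 8 windows, this one, Sac3d1 (-2.57 points) and Grik2 (12.2 points). The window in Tram2 was read at 1 to 9 CpGs per sample. The 8 windows had between 24 and 1116 reads per sample.

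Promoters gave no call either. Of 12755 promoters, edgeR's quasi-likelihood test called 0 (0% of those tested), and the smallest adjusted p was 1.00 after rounding. An unadjusted p under 0.05 was found for 422, or 3.31%, of which 95 were higher and 327 lower. limma called 0, with 661 at an unadjusted p under 0.05. The median difference was -0.35 points, and 2.70% of promoters differed by over 10 points in their group means.

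Among the 8 promoters with the smallest p, that of Prss22, a serine protease gene, had by far the largest difference. It was 19.0%, 20.9% and 7.02% methylated with BR extract and 65.8%, 45.8% and 46.3% with DBP (15.7% ± 7.54 against 52.6% ± 11.4, from 21 to 114 reads per sample). Fam124a was 8.37%, 8.80% and 14.1% against 22.9%, 21.7% and 20.2%. Ssr3, a subunit of the translocon-associated protein complex, was the only one of the 8 with a higher level, at 11.7%, 10.1% and 6.22% against 2.72%, 2.88% and 3.38%. Over only its CpGs with 10 reads in all 6 samples, the difference at Ssr3 went from 6.35 to 3.41 points (edgeR's test, unadjusted p = 0.272). Such a value could not be given for Prss22, Smpd4 and Cep72, whose CpGs of this kind held too few reads. Prss22 was read at 3 to 6 CpGs per sample. The groups did not overlap at any of the 8 promoters, which were picked for their small p. Of all promoters, 9.60% had groups that did not overlap.

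The other 5 had low levels in both groups. Smg6, a nuclease of nonsense-mediated decay, and Srr, serine racemase, share 1 promoter region, which was 1.98%, 1.29% and 1.39% against 8.37%, 3.31% and 3.49% at Smg6. Dync1li2, a dynein subunit, stood at 2.08% ± 0.602 against 5.56% ± 1.39, Smpd4 at 1.26% ± 0.104 against 5.16% ± 1.85, and Cep72 at 1.75% ± 0.506 against 8.003% ± 5.36. The difference at Smg6 went from -3.50 to -1.85 points without DBP sample 1, as it did at Srr, and at Cep72 from -6.26 to -3.50 points without DBP sample 2. Unadjusted p-values of the 8 lay between 0.000315 and 0.00224 in edgeR's test and none passed after adjustment.

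Gene groups that bear on DBP and on chemoprevention were described at their promoters, where none of the promoters in any list was called. In the group of the aryl hydrocarbon receptor and the enzymes that activate DBP, 12 of 17 promoters were measured. Their median difference was 0.24 points, from -10.4 to 11.02, and 0 had an unadjusted p under 0.05. Ahrr, the repressor of that receptor, was 38.0%, 23.7% and 21.4% with BR extract and 21.2%, 11.6% and 22.0% with DBP (edgeR's test, unadjusted p = 0.152), and the groups overlapped.

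Of 35 genes of phase II detoxification and NRF2 targets, 19 were measured, with a median difference of 0.19 points and 0 under 0.05. Gstm1, a glutathione transferase, was 14.4%, 41.6% and 31.2% with BR extract against 25%, 50.0% and 59.3% with DBP, and Srxn1, a sulfiredoxin, had 1 BR extract sample at 22.4% among values from 4.87% to 6.96%. Of 34 genes for repair and bypass of bulky adducts, 31 were measured, with a median difference of -0.70 points and 1 lower under 0.05. That one was Rad18, a ubiquitin ligase of translesion synthesis, at 18.5%, 64.5% and 78.6% against 75.2%, 86.0% and 84.9%, where the first BR extract sample stood apart and the groups overlapped. Trp53 was 9.10%, 4.17% and 6.43% against 13.8%, 9.32% and 16.0% (edgeR's test, unadjusted p = 0.0649).

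Among inflammation and NF-kB genes 25 of 43 were measured, with a median difference of -0.20 points. The promoter of the chemokine gene Cxcl2 was 2.45%, 3.61% and 5.21% with BR extract and 13.4%, 8.33% and 10.3% with DBP (edgeR's test, unadjusted p = 0.0167), and Rela, an NF-kB subunit, was 3.24%, 3.83% and 4.32% against 4.49%, 5.88% and 6.03%. In both the groups were separate, as they were in 5 of the 25 and in 9.60% of all promoters. Of the tumor suppressors silenced in oral cancer 43 of 46 were measured, with a median of -0.66 points, 1 higher and 2 lower under 0.05. Foxe1 was 6.73%, 6.59% and 4.14% against 3.72%, 3.33% and 2.56%, and Stk11, a kinase that activates AMPK, 6.96%, 14.2% and 12.3% against 21.0%, 24.4% and 12.2%.

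Of the cell cycle and apoptosis genes 30 of 37 were measured, with a median difference of 0.02 points and 0 under 0.05. The promoters of Ccnd1 and Ccnd3, both D-type cyclins, were 2.40%, 3.35% and 3.22% against 6.29%, 3.80% and 6.60%, and 5.87%, 4.79% and 7.86% against 12.6%, 10% and 10.1%. Of the Wnt genes 53 of 59 were measured, with a median of -0.24 points and 1 lower under 0.05. It was the ligand gene Wnt3, at 7.15%, 5.76% and 4.68% against 12.8%, 9.18% and 8.20%, and Wnt10a followed at 6.62%, 17.9% and 10.9% against 22.2%, 17.8% and 17.2%.

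For the 31 FGF ligands and receptors 28 promoters were measured, with Fgfr1 counted under more than 1 entry of the annotation. Their median was -0.29 points, with 1 lower under 0.05. It was the promoter of Fgf3, at 3.50%, 3.88% and 2.94% with BR extract and 6.36%, 6.12% and 4.61% with DBP (edgeR's test, unadjusted p = 0.01004), while Fgf14 was 7.13%, 9.91% and 7.39% against 15.7%, 40% and 5.43%. Of the genes that write, read or erase DNA methylation 19 of 22 were measured, with a median of -0.75 points and 1 lower under 0.05. The methyl-CpG binding protein genes Mbd1 and Mbd3 stood at 4.02%, 9.27% and 9.22% against 20.3%, 8.15% and 15.9%, and at 19.7%, 27.7% and 13.4% against 11.1%, 15.3% and 13.3%. Among the genes the study examined by RT-PCR 11 of 12 promoters were measured, with a median of -0.17 points and differences from -2.25 to 1.05 points. After Fgf3 the smallest p was that of Tbc1d4, a Rab GTPase activator, at 4.77%, 9.002% and 6.21% against 8.05%, 7.86% and 8.30%. The medians of the 10 lists, from -0.75 to 0.24 points, lie around the -0.35 points of all promoters.

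Promoters of cell type markers were set side by side as a description of the tissue mix, since methylation there differs between cell types. Over 15 of 28 squamous epithelium markers the mean level was 15.4%, 15.6% and 15.7% with BR extract and 17.3%, 16.3% and 18.5% with DBP, all BR extract samples being lower. Over 13 of 30 skeletal muscle markers it was 45.6%, 43.1% and 42.6% against 47.2%, 46.0% and 46.5%, again with separate groups. Among their single members, with Sfn and Klf4 first for epithelium and Atp2a1 and Tnni1 for muscle, 0 had an unadjusted p under 0.05. Atp2a1 (91.5% against 79.3%) and Tnni1 (27.6% against 47.1%) went opposite ways. Of the epithelium markers 5 were higher and 10 lower, with 0 separate. Of the muscle markers 4 were higher and 9 lower, with 1 separate each way, where 9.60% of all promoters were separate. The mean over all promoter CpGs was also lower in every BR extract sample. Leukocyte markers (5 of 27) averaged 25.3% ± 0.366 against 25.5% ± 1.03, fibroblast markers (7 of 16) 15.4% ± 2.64 against 14.9% ± 4.81, and endothelial markers (5 of 12) 26.1% ± 3.18 against 26.1% ± 2.54. Salivary gland markers (3 of 10) averaged 36.1% ± 5.71 against 33.4% ± 0.568. In these 4 lists the groups overlapped. In the endothelial list the promoter of Erg was 22.5%, 23.4% and 19.7% against 30.3%, 39.1% and 34.5% (edgeR's test, unadjusted p = 0.0247), while Robo4 averaged 61.3% against 49.6% (unadjusted p = 0.257) and 3 of the 5 were higher. A different share of cell types and a different methylation of the same cells cannot be told apart in whole tissue. Levels of promoter methylation do not show which cells were present, and expression was not analysed here.

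The samples of the BR extract group were less alike than those of the DBP group. With 10 reads drawn per CpG, the Pearson coefficient over the shared CpGs was 0.930 to 0.934 between DBP samples, 0.898 to 0.908 between BR extract samples and 0.912 to 0.925 between the groups. Every BR extract sample thus had a higher coefficient with each DBP sample than with either other BR extract sample, as a description of 15 pairs that share libraries. With all reads in place of 10, BR extract samples 1 and 3 had a coefficient of 0.944, above the 0.941 of BR extract sample 1 and DBP sample 1, and the order no longer held for each pair. Ward clustering joined the 3 DBP samples first, then BR extract samples 3, 1 and 2 in turn, so the BR extract samples formed no branch of their own. The mean SD between samples at a CpG was 7.05 points with BR extract and 6.07 points with DBP. Across the 4 annotation classes the ratio of the 2 SDs lay between 1.15, in promoters, and 1.18, in exons, and was 1.13 over windows with 20 reads drawn. Squared differences between pairs were 1.24 to 1.32 times the binomial expectation within DBP and 1.96 to 2.22 times within BR extract, as a description. The difference between strands within a library, given above, was larger in the BR extract samples as well, and its part in this spread was not tested.

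**Figure D5:**
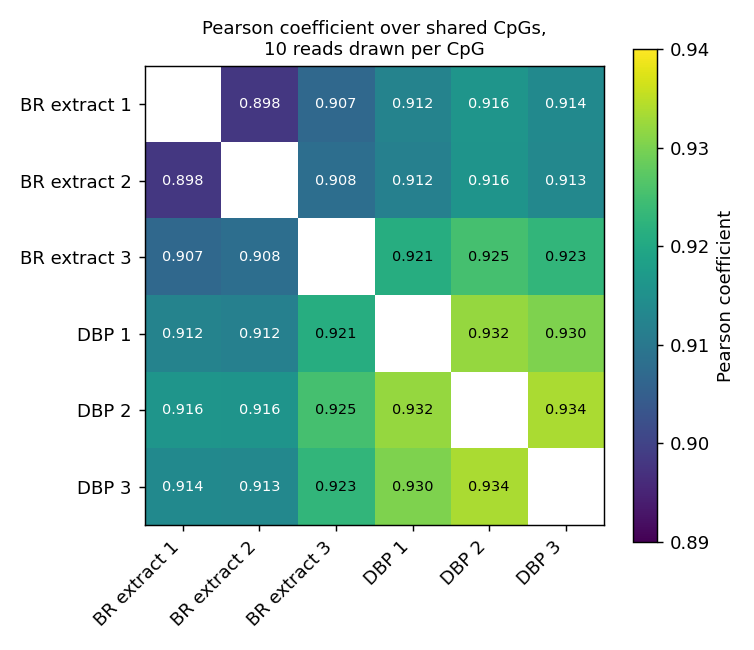
Pearson coefficient of methylation levels over the 102114 shared CpGs for each pair of samples, with 10 reads drawn per CpG, where "BR extract 1" stands for DBP plus BR extract sample 1. The 3 pairs within DBP have the highest values, from 0.930 to 0.934, and the 3 pairs within BR extract the lowest, from 0.898 to 0.908.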

How the data were processed

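Methylation was measured by ERRBS from 50 ng of DNA per sample, with MspI fragments of 70 to 320 bp, 18 PCR cycles, 6 samples per lane and reads of 50 bp. Per the labels the reads were trimmed with Trim Galore 0.3.3, mapped to mm9 and called with Bismark 0.10.1. The authors deposited counts of methylated and unmethylated reads for each CpG cytosine and strand, not normalized. They also deposited the percent methylated, which equalled the counts on every line. PCR duplicates cannot be recognised in such counts, so intervals and the limit of 3 reads cover counting error only.

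Cytosines with under 10 reads or in the top 0.1% by depth were removed, strands were merged, and autosomal CpGs present in all 6 samples were kept. Each CpG was fitted by logistic regression on scaled coverage, with a likelihood ratio as statistic, and q-values were by Benjamini-Hochberg. methylKit itself was not run. Windows and promoters were tested on summed reads with edgeR 4.0.16 and limma 3.58.1 in R 4.3.3, as was each CpG. limma used log2 of methylated plus 1 over unmethylated plus 1 reads. Levels of samples were compared with 10 reads drawn per CpG by two-sided exact permutation tests, and Wilson intervals were at 95%. Python 3.11.15, NumPy 2.4.6, pandas 2.3.3 and SciPy 1.17.1 were used, and the tests were tested on simulated data.

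Genes came from GENCODE vM1, on mm9. A CpG was assigned to a promoter first, then to an exon, an intron or a stretch between genes, and distances are to the nearest protein-coding start. Named CpGs were the 12 calls over 25 points with separated groups and the smallest p, at most 1 per 1000 bp. Named windows and promoters were the 8 of each with the smallest p, and named members of each of 10 gene lists the 2 with the smallest p, of which 1 is not reported here. The 6 marker lists are given by their means, with single members only for epithelium, muscle and endothelium. The clusters, the CpGs called with 10 reads drawn and the CpG called by edgeR were added after their values were seen. The comparison, the lists and the rules were chosen with earlier results of these data known. Groups came from the titles, without covariates. Alternatives changed the coverage minimum, scaling, strands, test, block, window, promoter width and the samples included.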

Additional observations from a re-analysis of the deposited data

How the results depend on the processing

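All values are from the comparison of DBP plus BR extract with DBP. The count of CpGs called over 25 points, 962, was 3439 at a coverage minimum of 5 and 132 at 20, and 7 with 10 reads drawn, while over 10 points the 8568 calls became 14332, 2287 and 7, and 1788 without scaling of coverage. edgeR and limma gave 0 at both differences at an adjusted p under 0.01, as did edgeR with 10 reads drawn, and limma with 10 reads drawn gave 5 and 18 (both with drawn reads were chosen after seeing the data). The coverage minimum changes how many CpGs are tested and drawing reads changes how many reads are used; the cause of the other changes was not tested. The share of higher calls stayed between 20% and 45.8%. Leaving out 1 sample gave 1547 to 2143 calls over 25 points and 6542 to 10284 over 10, from other sets of covered CpGs, and 205 of the 962 were called in all 6 such fits. Windows and promoters gave 0 calls under each alternative run, with 1 exception: logistic regression on pooled reads called 7383 windows and 3261 promoters. The mean Pearson coefficients within BR extract, between the groups and within DBP were 0.939, 0.947 and 0.957 with all reads, and 0.959, 0.964 and 0.969 over windows, in the same order as with 10 reads drawn. Differences in mean level, in methylation classes and in annotation classes kept their direction under the alternatives run. Of the 12 named CpGs, 11 were not called with 10 reads drawn and 12 not by edgeR, with no change of direction. Depth limits a single level: 10 reads leave a level of up to 30% possible at 0 methylated reads.

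The numbers of the samples did not pair them: deviations of same-numbered samples from their group means had correlations of 0.00347, 0.000860 and 0.000921, and sample 2 correlated slightly better with number 3 than with its own. With the replicate block there were 948 calls over 25 points, 7877 over 10, and 0 windows and 0 promoters.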
